A study of Mus musculus with 8 samples.

Results

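The 10 genes described here encode the transcription factor ATF4 and genes of the integrated stress response that act with it or are switched on by it: Atf4, Atf5, Cebpg, Ddit3, Ppp1r15a, Nupr1, Trib3, Asns, Sesn2 and Chac1. They were picked by name for their known role, with earlier results of these data known, from the 41388 genes in the tables, and all 10 had enough counts to be tested among 13933 genes. The cells were macrophages of epididymal white adipose tissue from 4 male MitoFat mice on normal chow, a strain in which the mitochondria of adipocytes carry a reporter. In each mouse, live CD45+ F4/80+ CD64+ cells were sorted into a population without the reporter signal (mtD2-) and a population with it (mtD2+), which gives 8 libraries in 4 pairs. Both populations thus came from the same fat pads and the same strain, and neither received a treatment. The labels call the reporter adipocyte-specific, but its driving promoter, the mice's age and the yield of each sort are not stated in the material used here. The design asks how macrophages that hold adipocyte mitochondria differ in RNA from macrophages of the same mouse that do not.

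The integrated stress response is a control of protein synthesis. Kinases that sense amino acid shortage, misfolded protein, viral RNA, or heme and mitochondrial trouble phosphorylate the initiation factor eIF2, which lowers translation in general and raises translation of a few mRNAs with short upstream reading frames, Atf4 among them. ATF4 protein then pairs with C/EBP and related factors and turns on genes for amino acid supply, for redox balance, for feedback on the response itself and, when stress persists, for cell death. Because ATF4 is set largely at translation, RNA of Atf4 does not report the amount of its protein. RNA of its targets is the usual readout.

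ATF4 dimers bind C/EBP-ATF response elements near their targets, so the promoter windows of the 10 genes were searched for the core of that element, TGATGNAA, on both strands. The windows were RefSeq's on GRCm38.p6, from 250 bases before to 50 bases after a gene's start, and all 10 genes had at least 1. The core was in windows of 4 of the 10 genes (Nupr1, Asns, Chac1 and Trib3) and in 3.97% of all 32851 windows, or in windows of 4.51% of 27025 genes. The cyclic AMP response element, TGACGTCA, which reads the same on both strands, was in the window of Ppp1r15a alone of the 10 and in 1.79% of all windows. The ER stress response element, CCAAT and CCACG with any 9 bases between them, was in none of the 10 on either strand and in 0.119% of all windows. A match is a run of letters and not a shown binding site. A window without a match does not show that a gene lacks the element, as sequence outside the windows and inexact matches were not searched. The stretches below, 5′ to 3′ on the gene's strand, have the matched letters in capitals, and the stretch of Atf4, the factor itself, is shown as a window with no match. They are chr7:126625471-126625620 (minus strand), chr7:45526269-45526418 (minus), chr6:7693210-7693309 (minus), chr2:119350992-119351111 (plus), chr2:152344029-152344056 (minus) and chr15:80255034-80255183 (plus), in the order printed.
Nupr1: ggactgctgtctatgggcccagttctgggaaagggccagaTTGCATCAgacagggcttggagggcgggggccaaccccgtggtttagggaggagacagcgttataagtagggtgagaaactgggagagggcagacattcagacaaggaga
Ppp1r15a: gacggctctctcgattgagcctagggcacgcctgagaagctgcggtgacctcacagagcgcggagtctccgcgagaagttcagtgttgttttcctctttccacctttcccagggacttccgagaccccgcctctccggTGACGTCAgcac
Asns: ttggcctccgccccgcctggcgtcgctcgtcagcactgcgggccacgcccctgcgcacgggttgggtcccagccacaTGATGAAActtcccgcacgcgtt
Chac1: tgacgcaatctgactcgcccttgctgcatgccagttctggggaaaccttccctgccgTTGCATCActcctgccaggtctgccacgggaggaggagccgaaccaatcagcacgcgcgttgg
Trib3: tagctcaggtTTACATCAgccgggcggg
Atf4: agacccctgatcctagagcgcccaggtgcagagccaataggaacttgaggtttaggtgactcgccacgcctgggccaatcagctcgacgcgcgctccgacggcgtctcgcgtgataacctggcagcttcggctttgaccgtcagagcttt

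Of the 10 genes, 3 rose in mtD2+ macrophages: Ppp1r15a, the regulatory subunit that reverses eIF2 phosphorylation, Atf4 itself, and Nupr1, a small stress-induced chromatin protein. None of the 10 fell. The enzyme and sensor genes Asns, Sesn2 and Chac1, standard targets of ATF4, did not pass: the means of Asns and Sesn2 were lower in mtD2+, and Trib3 and Chac1 were almost unread. Over all genes tested 3.72% were called higher and 1.78% lower (5.50% in all) at a Benjamini-Hochberg adjusted p under 0.05, by edgeR's quasi-likelihood test with the mouse as a block, which is the source of every log2 fold change, SE and adjusted p of a single gene below unless another tool is named. The median log2 fold change of the 10, mtD2+ over mtD2-, was 0.45, against −0.00064 over all genes tested. It lies between the values of Ddit3 (0.41) and Chac1 (0.50, SE 1.43). Chac1 and Trib3 (2.08, SE 1.31), both above it, had libraries at 0 counts, so this median rests in part on genes almost unread. Without the block 0 of the 10 passed, where 1.06% of all genes were called higher and 0.510% lower, and 2 had an unadjusted p under 0.05. With DESeq2's Wald test 4 passed (8.11% of all genes higher, 4.80% lower), as with a stricter low-count filter in edgeR (8.61% higher), and with limma voom 3 passed (4.98% higher). Leaving out mouse 1, 2 or 3 left 0 of the 10 past edgeR's test (1.21%, 1.38% and 0.850% of all genes higher), and leaving out mouse 4 left Ppp1r15a and Atf4 (3.08%). Without mouse 1 or 2, an unadjusted p under 0.05 was reached by Atf4, Ddit3, Ppp1r15a and Nupr1. Without mouse 3 Asns, lower in mtD2+, took the place of Ddit3. The share of all genes at that level was not computed for these fits or without the block. It was 22.8% with all mice and the block.

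**Figure D1:**
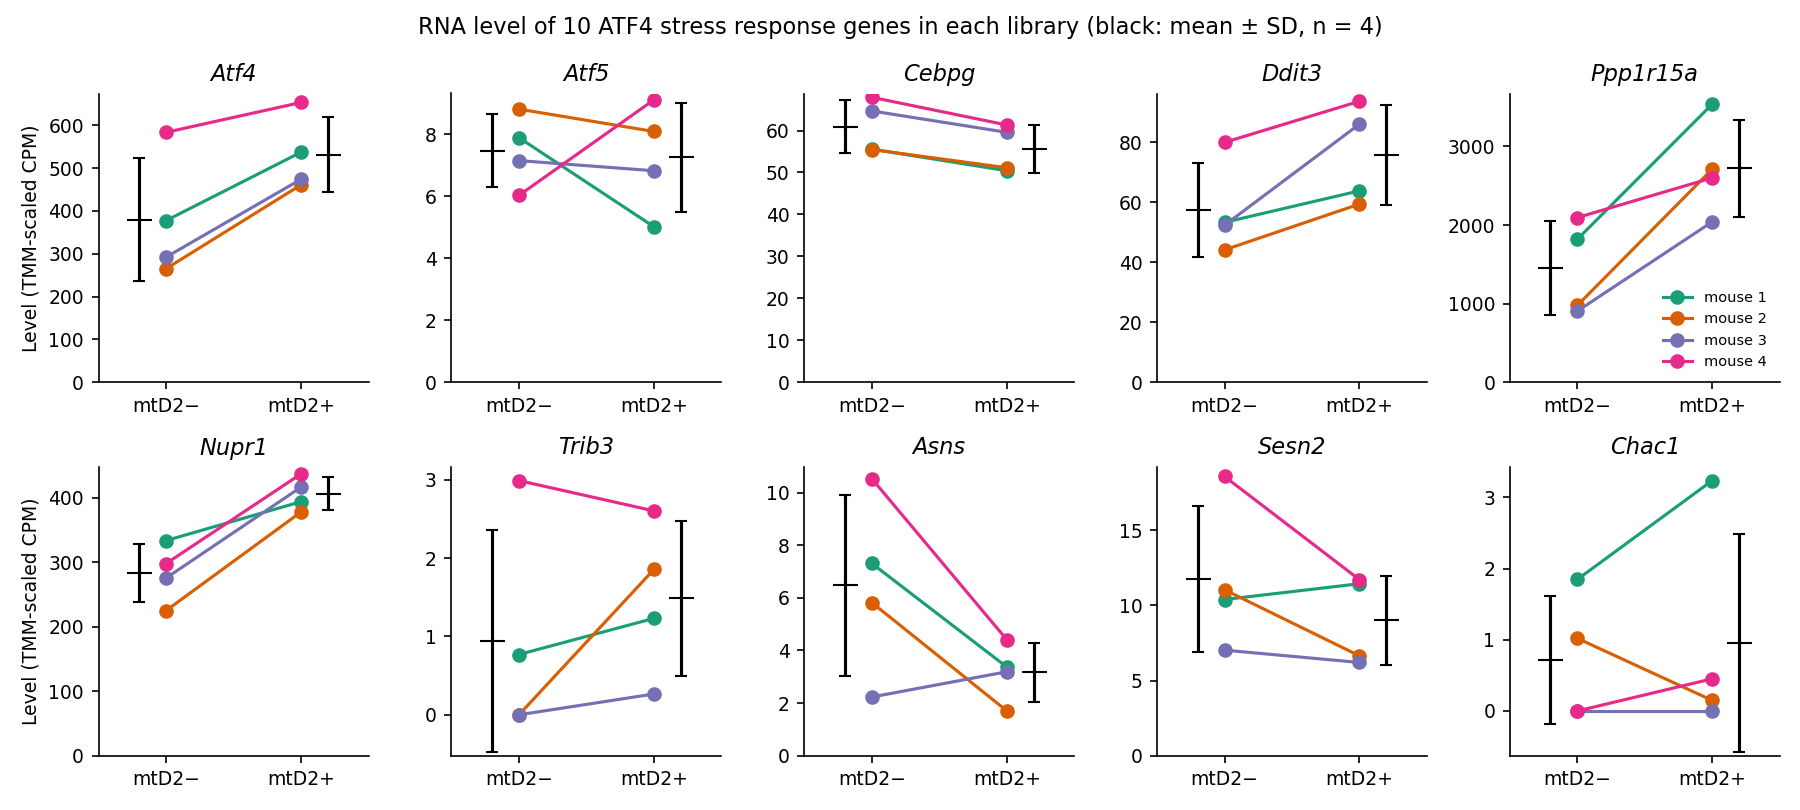
Level of each of the 10 genes in the 8 libraries, in CPM (the count scaled to library size with TMM factors), with a line joining the populations of each mouse and black bars for the mean ± SD of 4 libraries. Nupr1 lies between 225 and 333 CPM in mtD2- and between 378 and 437 in mtD2+, with no overlap, while Asns is lower in mtD2+ in 3 of 4 mice.

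The libraries held 18462287 to 27464399 gene-assigned counts. All 12 macrophage markers were tested, and their summed level was 21465 to 25720 CPM in mtD2- and 18436 to 22375 in mtD2+, with Mertk higher and Adgre1 and C1qb lower by the test. Summed markers of other cells were 729 to 1273 CPM in mtD2- and 196 to 240 in mtD2+ for fibroblasts and precursors, 223 to 294 and 215 to 426 for adipocytes, 742 to 822 and 527 to 806 for B cells, and 492 to 630 and 273 to 381 for monocytes. They were 161 to 235 and 232 to 276 for dendritic cells, 57.0 to 79.2 and 70.8 to 100.3 for neutrophils, 11.5 to 17.8 and 10.5 to 32.5 for endothelium, and 0.920 to 5.85 and 1.05 to 3.17 for T and NK cells. No marker in these lists was at 0 counts in all 8 libraries. By test, 6 of 8 fibroblast markers, 1 of 6 monocyte markers and 1 of 5 tested B cell markers were lower, and the part of these cells in the results below was not tested. On the first principal component of all tested genes, with 26.4% of the variance, mouse 4's mtD2- cells were at the extreme (−81.1, against −28.3 to −3.61 in the other mtD2- libraries and 18.7 to 60.5 in mtD2+).

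Levels of different genes were compared per kilobase of the exon length in the tables. Ppp1r15a stood highest on this scale, at 493 ± 204 CPM per kb in mtD2- and 927 ± 211 in mtD2+ (SD, n = 4), followed by Atf4 at 220 ± 83.6 and 308 ± 50.9, Nupr1 at 113 ± 18.1 and 162 ± 10.3, and Ddit3 at 33.5 ± 9.10 and 44.2 ± 9.76. Cebpg was at 12.3 ± 1.29 and 11.3 ± 1.14. Atf5 (3.75 ± 0.591 and 3.64 ± 0.886), Sesn2 (3.38 ± 1.40 and 2.59 ± 0.859) and Asns (2.37 ± 1.26 and 1.16 ± 0.408) lay close together, and Trib3 (0.442 ± 0.665 and 0.701 ± 0.466) and Chac1 (0.438 ± 0.546 and 0.586 ± 0.935) lower still. The 10 genes therefore spanned the range of expression: 99.4% of tested genes lay below Ppp1r15a, 98.7% below Atf4, 97.5% below Nupr1 and 91.1% below Ddit3, but 30.0% below Asns, 12.4% below Trib3 and 11.3% below Chac1. Ppp1r15a and Atf4 overlapped in mtD2- and not in mtD2+, neighbours from Atf4 down to Atf5 did not overlap within a population, and from Atf5 down neighbours did in mtD2-. The length given for Nupr1, 2514 bases, covers exons of all its transcripts, so its place on this scale depends on which of them the cells make.

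**Figure D2:**
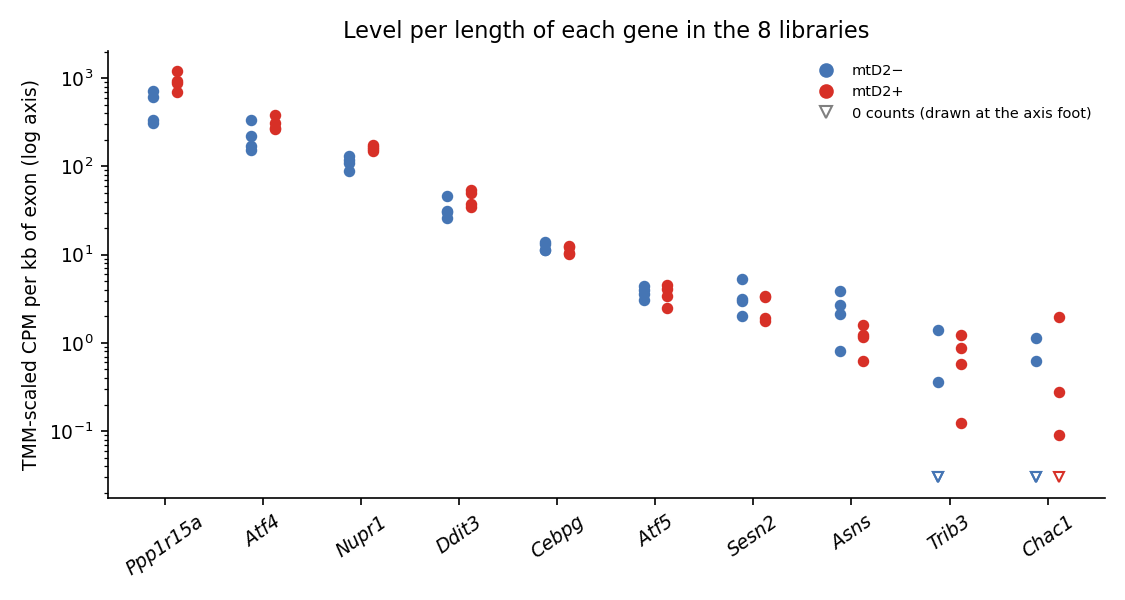
Level of each gene per kilobase of exon, on a log axis, in the 4 mtD2- (blue) and 4 mtD2+ (red) libraries, in order of the mean over all 8. The genes fall from 1205 CPM per kb for the highest Ppp1r15a library to libraries with 0 counts of Trib3 or Chac1, which are drawn as open triangles at the foot of the axis, where several can coincide.

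Atf4 (chromosome 15, 80255184 to 80257540, GRCm38) stood at 378, 265, 292 and 584 CPM in the mtD2- libraries of mice 1 to 4 against 537, 461, 474 and 653 CPM in the mtD2+ libraries. It was higher in mtD2+ in each mouse, but the groups overlap, because the mtD2- library of mouse 4 was above 3 of the 4 mtD2+ libraries. The means were 380 ± 144 and 532 ± 87.8 CPM (SD, n = 4), and Atf4 rose 1.46-fold (log2 fold change 0.54, SE 0.13, adjusted p = 0.0439). As these are bulk libraries, more RNA per cell and more cells with the RNA cannot be told apart, here and for every gene below. The call was lost without the block (log2 0.49, adjusted p = 0.308) and without mouse 1, 2 or 3 (log2 0.46 to 0.55, adjusted p = 0.131 to 0.191), and without mouse 4 the log2 fold change was 0.67 (adjusted p = 0.0167).

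The closest relative of Atf4 among the 10, Atf5, encodes a factor that is also controlled through upstream reading frames and is known in the mitochondrial stress response. Atf5 (chromosome 7, 44812257 to 44816658) had 7.89, 8.81, 7.15 and 6.03 CPM in mtD2- against 5.01, 8.09, 6.82 and 9.11 in mtD2+. It was lower in mtD2+ in 3 mice and higher in mouse 4, within 1 range, and the log2 fold change was −0.06 (SE 0.30, adjusted p = 0.925), or 0.13 without mouse 1. Its exons share 82 of 1992 bases with genes on the opposite strand, Il4i1 and a gene without a symbol. These had 115 to 211 and 1188 to 2816 counts, against 110 to 233 for Atf5. Whether the counting used strand is not stated in the material used here.

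Cebpg encodes a C/EBP protein that pairs with ATF4 on the response element. Cebpg (chromosome 7, 35046422 to 35056503) had 55.6, 55.5, 64.7 and 67.9 CPM in mtD2-, against 50.4, 51.1, 59.6 and 61.3 in mtD2+. It was lower in mtD2+ in all 4 mice and by nearly the same step in each (log2 ratios of −0.14, −0.12, −0.12 and −0.15). Of all tested genes, 16.0% were lower in all 4 mice, whatever the size of the steps. The difference was small and did not pass the test (log2 −0.13, SE 0.11, adjusted p = 0.525).

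Ddit3, which encodes CHOP, the factor that ATF4 induces when stress is prolonged and that is linked to cell death, had 53.3, 44.1, 52.4 and 80.0 CPM in mtD2- against 63.8, 59.4, 86.1 and 93.7 in mtD2+. It lies on chromosome 10, 127290774 to 127296288. It was higher in mtD2+ in each mouse, with overlapping groups, and means of 57.4 ± 15.6 and 75.7 ± 16.7 CPM (n = 4). The log2 fold change of 0.41 (SE 0.13) did not pass edgeR's test (adjusted p = 0.0979), and it passed DESeq2's Wald test (adjusted p = 0.0412) and edgeR's test after a stricter low-count filter (adjusted p = 0.0475). Of the 1713 exon bases of Ddit3, 68 overlap Mars, which lies on the opposite strand and had 311 to 766 counts, against 1167 to 1943 for Ddit3.

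Ppp1r15a encodes GADD34, which brings a phosphatase to eIF2 and so restores translation, a feedback on the response. It is also known as a gene that tissue dissociation induces. Ppp1r15a (chromosome 7, 45522916 to 45526268) stood at 1818, 976, 904 and 2095 CPM in mtD2-, against 3539, 2711, 2041 and 2600 in mtD2+. It was higher in mtD2+ in each mouse, least in mouse 4 (log2 ratios of 0.96, 1.47, 1.17 and 0.31 for mice 1 to 4), and the highest mtD2- library slightly exceeded the lowest mtD2+ library. The means were 1448 ± 598 and 2723 ± 618 CPM, and it rose 1.98-fold (log2 0.98, SE 0.17, adjusted p = 0.0162), the largest change among the called genes of the 10. Without the block the adjusted p was 0.122, and without mouse 1, 2 or 3 it was 0.0641 to 0.104. Of its 2937 exon bases, 12 overlap Tulp2 on the opposite strand. Its constitutive relative Ppp1r15b, named here for its role and not by the rule for named genes, had 132 ± 12.2 CPM in mtD2- against 116 ± 12.1 in mtD2+ (log2 −0.19, SE 0.11, adjusted p = 0.349).

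Nupr1 (chromosome 7, 126623249 to 126630861) had 333, 225, 275 and 298 CPM in mtD2- against 394, 378, 416 and 437 in mtD2+. It was the 1 gene of the 10 whose groups did not overlap, as 6.55% of all tested genes did in this direction. The mtD2+ libraries were close to each other, with a coefficient of variation of 6.36%, against 16.1% in mtD2-. The means were 283 ± 45.4 and 406 ± 25.8 CPM, and it rose 0.53 on the log2 scale (SE 0.12, adjusted p = 0.0327). The call was lost on leaving out any 1 mouse (log2 0.46 to 0.63, adjusted p = 0.0669 to 0.147) and without the block (adjusted p = 0.0937).

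Trib3 encodes a pseudokinase that ATF4 and CHOP induce and that restrains them in turn. Trib3 (chromosome 2, 152337422 to 152344032) had 20, 0, 0 and 65 counts in mtD2- and 27, 50, 6 and 46 in mtD2+. Its 2 libraries at 0 allow levels of up to 0.113 and 0.126 CPM (3 counts each, counting error only). The highest of all was mouse 4's mtD2- library, which was also high for Atf4. The fitted log2 fold change of 2.08 had an SE of 1.31 (adjusted p = 0.388), was fitted against those zeros, and moved between 0.67 and 3.55 over the alternative settings, so no size of change can be given for this gene.

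Asns encodes asparagine synthetase, a standard target of ATF4 in amino acid shortage. Asns (chromosome 6, 7675169 to 7693254) stood at 7.31, 5.82, 2.23 and 10.5 CPM in mtD2- against 3.37, 1.71, 3.19 and 4.41 in mtD2+, or 190, 154, 53 and 229 against 74, 46, 72 and 78 counts. It was lower in mtD2+ in mice 1, 2 and 4 and higher in mouse 3, with the highest mtD2- library again that of mouse 4. The log2 fold change of −0.93 had a wide error (SE 0.44, adjusted p = 0.251), and it lay from −1.37 to −0.64 on leaving out each mouse.

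Sesn2 encodes a sensor of leucine that restrains mTORC1 and is induced by ATF4. Sesn2 (chromosome 4, 132492032 to 132510501) had 10.4, 11.0, 7.02 and 18.6 CPM in mtD2-, against 11.4, 6.64, 6.20 and 11.7 in mtD2+. It was lower in mtD2+ in 3 mice and not in mouse 1, and did not pass the test (log2 −0.36, SE 0.25, adjusted p = 0.433).

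Chac1 encodes an enzyme that degrades glutathione and is among the most inducible ATF4 targets. Chac1 (chromosome 2, 119351229 to 119354381) had 48, 27, 0 and 0 counts in mtD2- and 71, 4, 0 and 8 in mtD2+. Its counts were thus mostly in the libraries of mouse 1, and 3 of 8 libraries held none, which allows up to 0.126 to 0.138 CPM in each. The fitted log2 fold change was 0.50 with an SE of 1.43 (adjusted p = 0.874), and −0.79 without mouse 4.

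**Figure D3:**
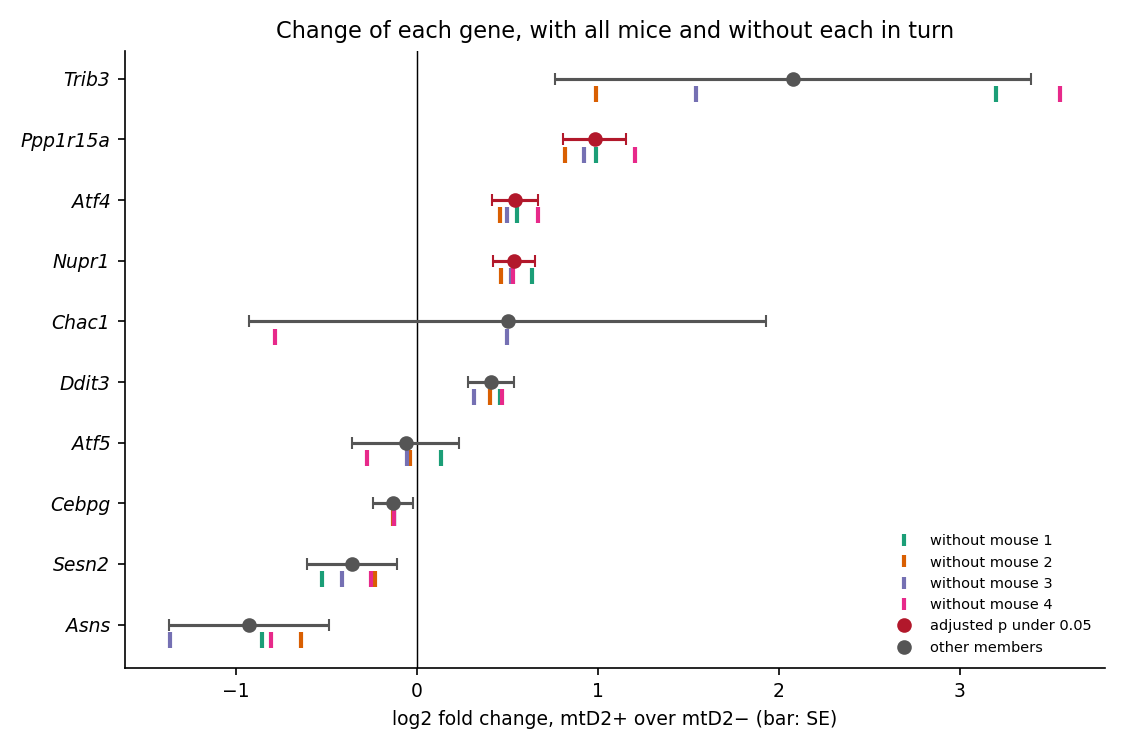
log2 fold change of each gene, mtD2+ over mtD2-, with its SE (point and bar, red where the adjusted p was under 0.05), and the value on leaving out each mouse in turn (coloured ticks; Chac1 was not tested without mouse 1 or 2). Ppp1r15a, Atf4, Nupr1, Ddit3 and Trib3 keep a positive value in every such fit, and Asns, Sesn2 and Cebpg a negative value. Trib3 and Chac1 have the widest errors.

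Counted by mouse, 4 of the 10 genes were higher in mtD2+ in all 4 mice (Atf4, Ddit3, Ppp1r15a and Nupr1), as were 16.3% of all tested genes. An unadjusted p under 0.05 was reached by the same 4, against 22.8% of all tested genes in either direction. These 4 are also the 4 most abundant of the 10 per length.

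Genes with motif matches fell on both sides of this division. Of the 4 genes with the C/EBP-ATF core, Nupr1 rose, and Asns, Chac1 and Trib3 did not pass the test. The match of Nupr1 lies 110 to 103 bases before its RefSeq start, that of Chac1 193 to 186 before and that of Asns 23 to 16 before, while that of Trib3 lies 15 to 22 bases after the start. The Nupr1 and Chac1 stretches hold the same 8 letters (TTGCATCA, the core read on the other strand). The match in Ppp1r15a to the cyclic AMP element lies 12 to 5 bases before the start, and the windows of Atf4, Ddit3, Atf5, Cebpg and Sesn2 held none of the 3 motifs.

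The relation of each gene to Atf4 can be read without any scaling, as its reads per 1000 Atf4 reads in the same library. This comparison was chosen after the values had been seen. Atf4 itself was higher in mtD2+ in each mouse (log2 ratios of 0.51, 0.80, 0.70 and 0.16). A gene with no change of its own therefore falls on this measure, and a fall does not show that its own level fell. Sesn2 itself was higher in mtD2+ in mouse 1 (log2 ratio 0.14), and Asns in mouse 3 (0.52). The ratio was not taken for genes outside the 10, so no share over all genes stands beside it. Asns had 19.4, 22.0, 7.63 and 18.0 reads per 1000 Atf4 reads in mtD2- and 6.28, 3.70, 6.73 and 6.75 in mtD2+. The mtD2+ libraries were all below the mtD2- libraries, with a mean log2 change of −1.448 ± 0.982 (SD, n = 4 mice). Sesn2 had fewer reads per Atf4 read in mtD2+ in each mouse as well (27.5, 41.6, 24.0 and 31.8 against 21.3, 14.4, 13.1 and 17.9 per 1000), again with no overlap and with a mean log2 change of −0.90 ± 0.478. Cebpg had a mean log2 change of −0.67 ± 0.266, with a value below 0 in each mouse. Ppp1r15a had more reads per Atf4 read in mtD2+ in each mouse (mean log2 0.44 ± 0.217). Nupr1 and Ddit3 had changes of both signs around 0 (mean log2 −0.0079 ± 0.281 and −0.13 ± 0.209), and Atf5 a mean of −0.60 ± 0.711 with mouse 4 opposite to the others. Over 7 such ratios, the exact paired sign-flip permutation test, two-sided, gave p = 0.125 for Asns, Sesn2, Cebpg and Ppp1r15a, the smallest that 4 pairs allow, or 0.219 after Benjamini-Hochberg adjustment. The test could not reach 0.05 in this design.

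**Figure D4:**
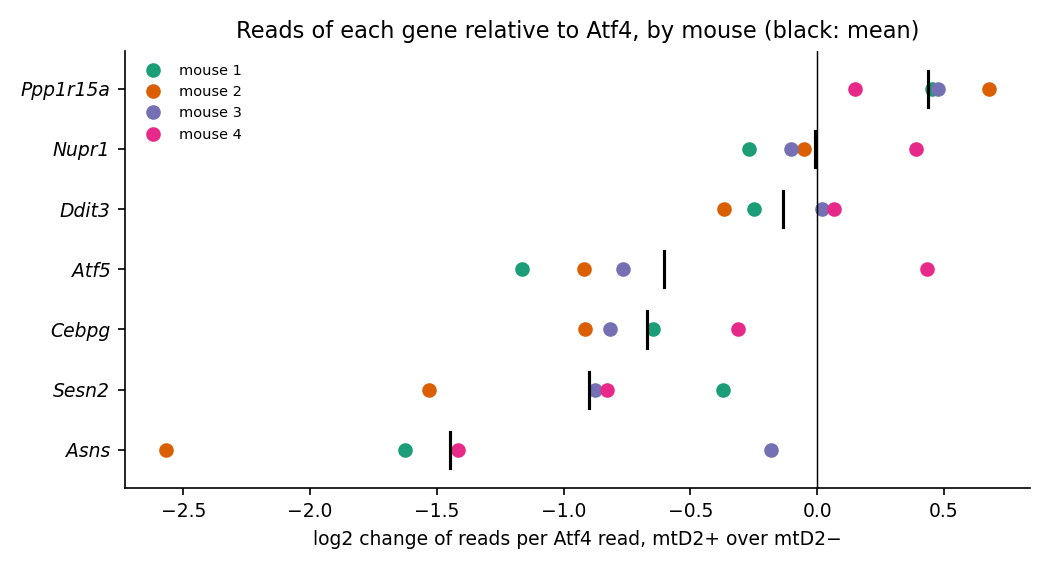
log2 change of the reads of each gene per Atf4 read, mtD2+ over mtD2-, for each mouse (coloured points) with the mean (black line). All 4 mice lie below 0 for Asns, Sesn2 and Cebpg and above 0 for Ppp1r15a. Atf4, the divisor, was itself higher in mtD2+ in each mouse, so a gene with no change of its own lies below 0.

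Freeing cells from tissue is known to induce immediate early genes and heat shock genes. In a list of 28 such genes, Ppp1r15a among them, 8 rose and 0 fell (median log2 0.40), beside 3.72% and 1.78% of all tested genes. The count of 8 was 1 without the block, 2, 4, 2 and 17 without mice 1 to 4 in turn, and 15 by DESeq2's Wald test. Of all tested genes, 1.06% were higher without the block, 1.21%, 1.38%, 0.850% and 3.08% without mice 1 to 4, and 8.11% by DESeq2. Summed without Ppp1r15a, the other 27 reached 21605, 15909, 18592 and 32565 CPM in mtD2-, against 30848, 27080, 29165 and 31292 in mtD2+, for mice 1 to 4. In mtD2- this sum was largest in mouse 4, as were Atf4, Ddit3, Ppp1r15a, Asns, Sesn2, Cebpg and Trib3. The log2 ratio of the sum was 0.51, 0.77 and 0.65 in mice 1 to 3 and −0.06 in mouse 4. In mouse 4, where the sum was not higher in mtD2+, the log2 ratio was 0.55 for Nupr1, 0.31 for Ppp1r15a, 0.23 for Ddit3 and 0.16 for Atf4. In mice 1 to 3 Nupr1 had 0.24, 0.75 and 0.60 and Atf4 had 0.51, 0.80 and 0.70. The values of mouse 4 are those of 1 mouse. The part of dissociation in the changes of Atf4, Ddit3, Ppp1r15a and Nupr1 was not tested.

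**Figure D5:**
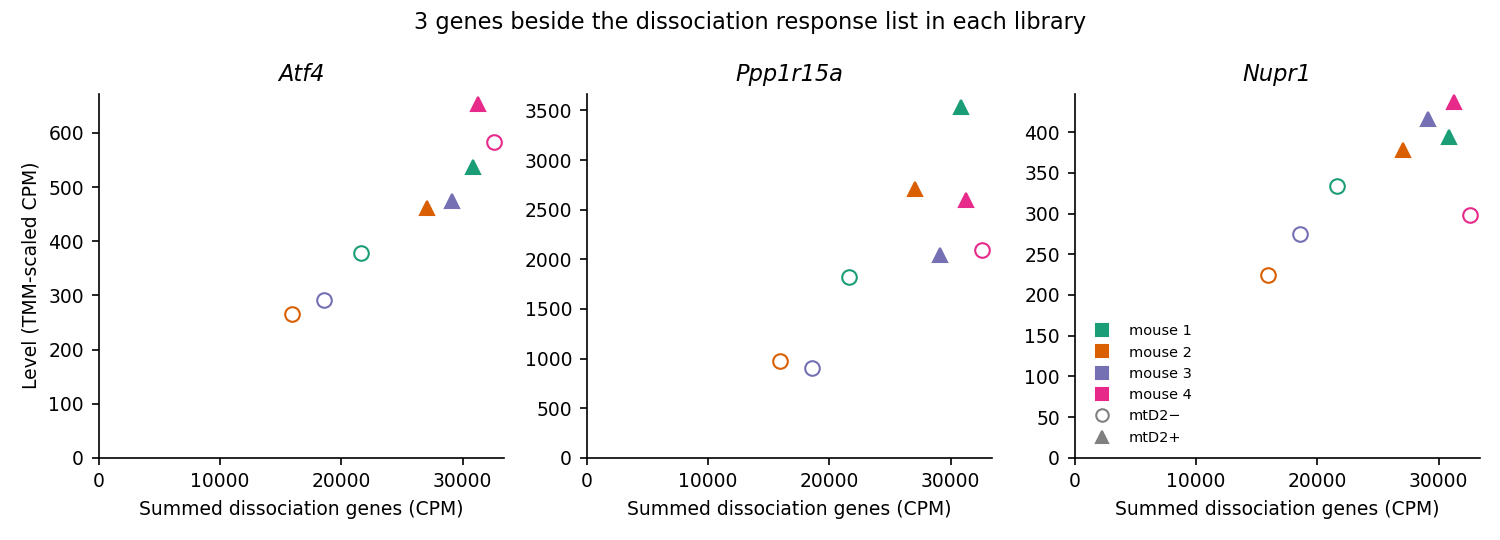
Level of Atf4, Ppp1r15a and Nupr1 against the summed level of 27 dissociation response genes (both in CPM) in each library, with open circles for mtD2-, filled triangles for mtD2+ and a colour for each mouse. The mtD2- library of mouse 4, at 32565 CPM of the summed list, has an Atf4 level among those of the mtD2+ libraries and a Nupr1 level, 298 CPM, among those of the other mtD2- libraries.

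The likeness of other genes to Atf4 was measured as Pearson's r of log2 CPM (prior count 2) over the 8 libraries, a description in which the paired libraries share mice, group and depth. Among 12219 protein-coding genes compared, the 5 closest to Atf4 outside the set were Ikzf3 (r = 0.991), Lag3 (0.988), Odc1 (0.987), Litaf (0.986) and Ier3 (0.985). Litaf and Ier3 are abundant, and both rose in mtD2+ (log2 0.55, SE 0.13, adjusted p = 0.0415, and log2 0.74, SE 0.17, adjusted p = 0.042). Both calls were lost without the block (adjusted p = 0.287 and 0.416) and without mouse 1, 2 or 3. Ikzf3, Lag3 and Odc1 had few counts and did not pass (adjusted p = 0.151, 0.108 and 0.159), and Ikzf3 was at 0 in 2 libraries. Ier3, an immediate early gene of the dissociation list, stood at 2424 CPM in the mtD2- library of mouse 4, against 719 to 1015 in the other mtD2- libraries and 1559 to 2540 in mtD2+. Within the set, r with Atf4 was 0.878 for Ddit3, 0.869 for Ppp1r15a and 0.787 for Nupr1, and 0.356 for Sesn2, 0.131 for Asns, 0.0802 for Cebpg and −0.31 for Atf5. The values of Trib3 (0.902) and Chac1 (−0.0482) depend on the prior count, because these genes had libraries at 0, and are given no rank. That of Ikzf3 depends on it for the same reason, so its place as the closest gene to Atf4 is uncertain.

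Upstream of ATF4, the eIF2 kinases and the eIF2 machinery showed 1 gene of 22 higher and 0 lower, beside 3.72% and 1.78% of all tested genes. Their median log2 fold change was −0.11. The gene that rose was Impact, whose protein restrains the amino acid sensing kinase GCN2 by competing for its activator. Impact had 508, 332, 267 and 786 CPM in mtD2-, against 1249, 973, 1103 and 1680 in mtD2+. The groups did not overlap, and it rose 2.82-fold (SE of the log2 value 0.16, adjusted p = 0.00249), a call kept in all 13 alternative settings. The 4 kinases themselves, named for their role, did not pass the test. Eif2ak1, which encodes the heme-regulated kinase that also relays mitochondrial stress, stood at −0.27 (log2, SE 0.13, adjusted p = 0.266). Eif2ak2 (PKR), Eif2ak3 (PERK) and Eif2ak4 (GCN2) had 0.15, −0.19 and −0.09 (SE 0.21, 0.19 and 0.28). Mcts1 and Denr, which encode a pair of re-initiation factors, stood at −0.64 and −0.27 (SE 0.16 and 0.13, adjusted p = 0.0502 and 0.255, Mcts1 past the threshold in 6 of 13 alternatives), and Eif2b1 at −0.30 (SE 0.14, adjusted p = 0.251).

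Among 51 other genes known as ATF4 targets, 45 were tested, 3 rose and 0 fell, with a median log2 fold change of 0.05. The count of 3 was 1 without the block, 2, 1, 1 and 6 without mice 1 to 4 in turn, and 5 by DESeq2's Wald test, where 1 fell. Of all tested genes, 1.06% were higher without the block, and 1.21%, 1.38%, 0.850% and 3.08% without mice 1 to 4. By DESeq2 8.11% were higher and 4.80% lower. Fgf21, a secreted hormone of mitochondrial stress, had 0 counts in all 8 libraries, which allows up to 0.111 to 0.170 CPM in each. Those that rose were the amino acid transporter gene Slc38a2, the mitochondrial alanine transaminase gene Gpt2 and the transcription factor gene Atf3. Slc38a2 had 373, 348, 337 and 520 CPM in the mtD2- libraries, and the mtD2+ libraries, with 720, 636, 678 and 818, lay above them all (log2 0.87, SE 0.11, adjusted p = 0.0043), a call kept in all 13 alternatives. Gpt2 rose 0.75 in log2 terms (SE 0.15, adjusted p = 0.0235), lost without the block (0.208) and kept in 1 of the 4 fits without a mouse. Atf3 is also on the dissociation list. Its mtD2- libraries had 873, 669, 801 and 1745 CPM for mice 1 to 4 and its mtD2+ libraries 1693, 1484, 1654 and 1810, so that mouse 4 was again high in both. Atf3 rose 0.80 on the log2 scale (SE 0.18, adjusted p = 0.0356), a call lost without the block (0.196) and kept only without mouse 4 among the 4 fits without a mouse. The translation repressor gene Eif4ebp1 stood at −0.72 (SE 0.20, adjusted p = 0.0775). By count, rising calls in this list took 3 of 45, beside 3.72% of all tested genes.

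Of 26 paralogs and dimer partners of the 10, 25 were tested, 3 rose and 1 fell (median log2 0.22), beside 3.72% and 1.78% of all tested genes. Besides Atf3, the small Maf gene Mafg rose 0.83 (SE 0.10, adjusted p = 0.00404, lost without the block at 0.072) and the AP-1 gene Fosl2 rose 0.65 (SE 0.14, adjusted p = 0.0377, lost without the block at 0.253 and kept in 1 of the 4 fits without a mouse). The count of 3 was 0 without the block (1 fell), and 1, 1, 1 and 5 without mice 1 to 4 in turn. Of all tested genes, 1.06% were higher and 0.510% lower without the block. Without mice 1 to 4, 1.21%, 1.38%, 0.850% and 3.08% were higher. Batf3, a bZIP gene needed by a class of dendritic cells, fell by 0.72 on the log2 scale (SE 0.15, adjusted p = 0.0278), from 40.8, 44.2, 53.3 and 44.4 CPM to 30.2, 29.8, 26.7 and 23.8, a call lost on leaving out any 1 mouse. The C/EBP genes Cebpa, Cebpb and Cebpd, named for their role, had log2 fold changes of −0.17, 0.30 and 0.10 (SE 0.12, 0.20 and 0.22) and did not pass.

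The neighbouring stress pathways were read from lists of their own. Of 29 tested genes of the IRE1 and ATF6 arms of the ER unfolded protein response, 0 rose and 0 fell by edgeR (median log2 −0.13). In either direction, 9 had an unadjusted p under 0.05, as did 22.8% of all tested genes. By DESeq2's Wald test 1 rose and 3 fell, beside 8.11% and 4.80% of all tested genes. The genes of smallest p were Manf at −0.50 (SE 0.14, adjusted p = 0.0754), Sec61a1 at −0.37 (SE 0.11), Edem1 at 0.35 (SE 0.11) and Pdia6 at −0.34 (SE 0.11). Of 14 genes of the mitochondrial unfolded protein response 1 rose and 1 fell (median log2 0.02), beside 3.72% and 1.78% of all tested genes. Hspe1, which encodes the small mitochondrial chaperonin, rose 1.22 (SE 0.13, adjusted p = 0.00249, kept in all 13 alternatives). Grpel1, a cofactor of the import motor, fell by 0.57 (SE 0.14, adjusted p = 0.0469). That call was lost on leaving out any 1 mouse, without the block (0.151) and with DESeq2 size factors in edgeR (0.0513). Hspe1 has pseudogene copies, so its counts are uncertain. Hspa9 and Timm17a stood at 0.45 and −0.42 (adjusted p = 0.112 and 0.133). In the dissociation list the genes of smallest p outside the 10 were the heat shock genes Hsph1, Dnaja1, Hsp90aa1 and Hspa8, which rose 1.18, 0.94, 0.82 and 0.70 (SE 0.12, 0.12, 0.13 and 0.12). Dnaja1 kept its call in all 13 alternatives. Without the block Hsph1, Hsp90aa1 and Hspa8 lost theirs (adjusted p = 0.207, 0.0597 and 0.0624), and Hsp90aa1 and Hspa8 also lost theirs without mouse 1 or 3.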

How the data were processed

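RNA of the sorted cells was amplified with a SMARTer ultra-low input kit, per the labels' protocols. The submitters' processing notes name bcl2fastq, STAR 2.0.4b, Subread and featureCounts 1.45, with the build GRCm38; options and strand setting are not stated in the material used here. The deposited counts are whole reads per gene. The deposited CPM scales them by the library's total and the deposited RPKM divides CPM by gene length, as checked in every library; neither was tested. Symbols came from GENCODE M21 (40340 of 41388 identifiers); genes lacking one held up to 0.4256% of a library. Libraries of a group differed by 35.2 to 155 in chi-square per degree of freedom.

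Counts were tested with edgeR 4.0.16 (R 4.3.3): its expression filter (minimum count 10, minimum total 15), TMM factors, the mouse as a block, and adjustment over all 13933 genes. The SE is the log2 fold change over the root of F. The labels give each library's mouse, which pairs the libraries. Deviations from the group means correlated within mice 1 to 4 by 0.0385, 0.0704, 0.145 and 0.251, against at most 0.0582, 0.0246, 0.0139 and −0.01 with other mice, so the pairing does not show in mouse 1. Alternatives were no block, library totals, DESeq2 size factors, no filter, a filter of 5 CPM in 4 libraries, DESeq2 1.42.0, limma 3.58.1 voom, robust edgeR, protein-coding genes alone, and each mouse left out. The members and lists were chosen with earlier results of these data known. Named were the 10 members, up to 4 genes of smallest p from each other list (cell type markers only where set beside a result) and the 5 genes most like Atf4; genes outside this rule are said to be so, and Mertk, Adgre1, C1qb and Fgf21 were also named after their values were seen. The labels name no molecular identifiers, so limits at 0 counts cover counting error only.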

Additional observations from a re-analysis of the deposited data

Results flagged for a closer look

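Chac1 in the mtD2+ library of mouse 1, at 3.237 CPM, stood far from the other mtD2+ libraries, which were at 0 to 0.453 CPM: the gap to its nearest neighbour was 0.860 of the group's range, above Dixon's 95% critical value for 4 samples. The mtD2- library of the same mouse also had the highest Chac1 level of its group, 1.85 CPM. Among 20 groups of 4 checked, chance alone would give about 1 such group.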

How the results depend on the processing

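Without the replicate block 0 of the 10 genes were called higher and 218 of all genes were called in either direction, against 3 and 767 with it. A stricter low-count filter gave 1236 calls over all genes and the DESeq2 Wald test 1799. Leaving out each mouse in turn gave 0 to 2 of the 10 genes called higher and 166 to 555 calls over all genes. No setting called any of the 10 lower. With library totals alone, 407 genes were higher and 349 lower, against 519 and 248. On leaving out each mouse the log2 fold change ran from −0.28 to 0.13 for Atf5, positive without mouse 1, and from −0.79 to 0.50 for Chac1, negative without mouse 4. Neither was called, and the other 8 genes kept their sign in every setting in which they were tested. The causes were not tested. Fits without a mouse rest on 3 pairs. Asns, Trib3 and Chac1 fell below the stricter filter, and Chac1 was also not tested without mouse 1 or 2. Counts of Trib3, Chac1 and Asns did not exceed 229 in a library, and those of Atf5 did not exceed 233. The part of depth in the errors of these genes was not tested.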
